A study of Mus musculus with 24 samples.

Results

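Pcdh8, Ptpro, Rgcc, Scn2b and Pla2g5 are 5 mouse genes whose RNA was at least 2.5-fold lower in intestinal organoids after 6 h with the Frizzled 7 blocking peptide dFz7-21 than after 6 h with vehicle, and which are little known in the crypt. They are 5 of the 36528 genes counted, and all 5 passed the filter on low counts that left 15429 genes for testing. Organoids are self-organising cultures of intestinal epithelium, here grown from mouse small intestine, and polyadenylated RNA was sequenced in 24 libraries. The libraries form 6 groups of 4: dFz7-21 at 24 h, Fz7-21S at 24 h, DMSO at 24 h, dFz7-21 at 6 h, Fz7-21S at 6 h and DMSO at 6 h. DMSO is the vehicle, and the labels give Fz7-21S by name only. The labels give no genotype, strain, age, dose or medium, and do not say whether the 4 replicates of a group are separate cultures. The p-values below therefore set differences between groups against the scatter of these libraries, which may be technical.

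Frizzled 7 is a receptor for Wnt ligands, and Wnt signalling keeps the stem cells at the base of the intestinal crypt. When the receptor is engaged, beta-catenin enters the nucleus and acts with TCF/LEF proteins on target genes such as Lgr5, Axin2, Ascl2 and Sp5. The 5 genes belong to different families. Pcdh8 is a protocadherin, a cell surface adhesion protein, and its Xenopus relative PAPC is known to act with Frizzled 7 in separating tissues at gastrulation. Ptpro is a receptor tyrosine phosphatase first described in the podocytes of the kidney, and it can dephosphorylate Eph receptors. Rgcc, the regulator of cell cycle, was described as a gene induced by complement whose product binds the mitotic kinase Cdk1. Scn2b is an auxiliary beta subunit of voltage-gated sodium channels with an immunoglobulin domain. Pla2g5 is a secreted phospholipase A2, which releases fatty acids from membrane lipids.

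In the mouse build GRCm38 Pcdh8 (Entrez gene 18530) lies on chromosome 14 from 79766772 to 79771312, on the minus strand. Rgcc (66214) lies on the same chromosome and strand, from 79288750 to 79301635. Ptpro (19277) runs from 137252299 to 137464634 on chromosome 6, Scn2b (72821) from 45117876 to 45130070 on chromosome 9, and Pla2g5 (18784) from 138799247 to 138863562 on the minus strand of chromosome 4. The promoter stretches printed here show how differently the starts of these genes are built: the GC-rich start of Rgcc, the AT-rich start of Scn2b, and that of Pcdh8, which alone among the 5 genes held a searched motif. Each line gives the 250 bases before the gene start, 5′ to 3′ on the gene's strand, from RefSeq (GRCm38.p6): Pcdh8 at chr14:79771313-79771562 (minus strand), Rgcc at chr14:79301636-79301885 (minus strand) and Scn2b at chr9:45117626-45117875 (plus strand). Capitals mark a match to CTTTGTT, read here as its reverse complement.
Pcdh8: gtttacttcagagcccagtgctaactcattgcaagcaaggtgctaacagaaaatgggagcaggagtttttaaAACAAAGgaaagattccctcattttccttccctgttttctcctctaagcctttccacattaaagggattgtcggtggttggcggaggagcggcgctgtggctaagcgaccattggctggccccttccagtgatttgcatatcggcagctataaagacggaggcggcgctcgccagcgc
Rgcc: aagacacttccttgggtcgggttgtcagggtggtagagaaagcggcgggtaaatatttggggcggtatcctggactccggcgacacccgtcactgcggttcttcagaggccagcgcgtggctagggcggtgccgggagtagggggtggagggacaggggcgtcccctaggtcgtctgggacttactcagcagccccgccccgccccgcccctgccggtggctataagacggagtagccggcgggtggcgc
Scn2b: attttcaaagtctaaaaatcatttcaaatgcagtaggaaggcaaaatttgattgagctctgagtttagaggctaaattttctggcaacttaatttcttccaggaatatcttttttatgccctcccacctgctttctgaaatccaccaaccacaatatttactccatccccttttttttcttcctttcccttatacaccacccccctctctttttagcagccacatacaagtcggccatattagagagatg
Over windows of 300 bases, with 50 more bases after the start, the GC content was 54.3% for Pcdh8, 54.7% for Ptpro, 66.7% for Rgcc, 38.3% for Scn2b, and 58% and 55.3% for the 2 starts of Pla2g5, against a median of 52.7% over 32851 RefSeq windows. The Rgcc window held 26 CpG dinucleotides and the Scn2b window 2. The TCF/LEF motif CTTTGAT was in 0 of the 6 windows of these genes and in 3.73% of all windows, and its variant CTTTGTT was in the Pcdh8 window alone, starting at position -178 from the gene start, and in 5.85% of all windows. The SMAD motif GGCGCC was in the Pcdh8 window, starting at position 28 after the gene start and so beyond the printed bases, and in 11.9% of all windows. The E-box CAGCTG was in 0 of the 6 and in 16.3% of all. Both strands were searched, and the motifs do not overlap one another in the Pcdh8 window. A match describes letters only.

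Library totals ran from 20446610 to 33102993 counts, so that 3 counts, taken as the floor, correspond to 0.0906 to 0.147 CPM, the count scaled to the library's total. The counts of the 5 genes were 19 to 1060 in each library, and the thinnest were those of Pcdh8 with dFz7-21 at 6 h, at 19 to 27 counts. Epithelial markers (6 genes, among them Epcam and Cdh1) summed to at least 6157 CPM in every library. Mesenchymal markers (10 genes, 4 of them past the filter) summed to 974 CPM in dFz7-21 24 h replicate 3 and to 211 and 151 CPM in DMSO 6 h replicates 1 and 2, against 5.85 to 12.0 CPM in the other 21. Markers of endothelium stayed between 0.412 and 1.74 CPM, those of enteric neurons and glia between 14.4 and 26.2 CPM, and those of immune cells (6 genes, 2 past the filter) between 3.93 and 11 CPM. The last were at 9.71 to 11 CPM with dFz7-21 against 5.52 to 7.09 CPM with DMSO at 24 h, with 1 of the 6 at 0 in each group, and their part in the results at 24 h was not tested.

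The 2.5-fold fall that chose the genes was that at 6 h, but earlier results of these data were known at the choice. The tests at 24 h may therefore not be independent of the choice. After 24 h all 5 were lower with dFz7-21 than with DMSO. Pcdh8 fell the most, 12.3-fold, followed by Ptpro (5.01-fold), Scn2b (3.78-fold), Rgcc (3.16-fold) and Pla2g5 (2.95-fold). All 5 passed the test in edgeR's quasi-likelihood fit over all 24 libraries at an adjusted p below 0.05, where 17.7% of the genes tested were called lower, and in all 5 the dFz7-21 libraries lay wholly below the DMSO libraries, as for 19.0% of the genes tested. In bulk RNA fewer cells of a type and less RNA per cell cannot be told apart.

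**Figure D1:**
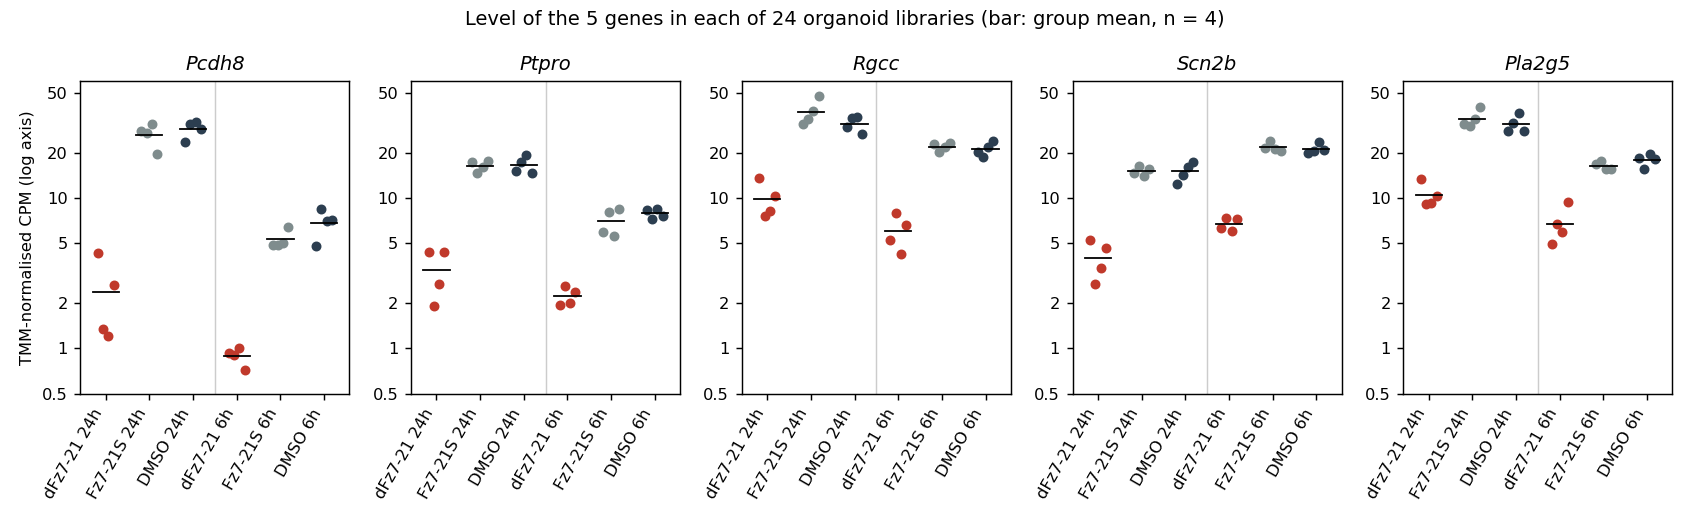
TMM-normalised CPM (log axis) of the 5 genes in each library, with 24 h left and 6 h right of the grey line and dFz7-21, Fz7-21S and DMSO from left to right within a time. Points are libraries and bars are means of 4. The dFz7-21 libraries lie below the DMSO libraries of their time point for each gene, with Pcdh8 at 1.21 to 4.29 CPM against 23.6 to 32.1 CPM with DMSO at 24 h.

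Of the cell surface proteins, Pcdh8 was at 4.29, 1.35, 1.21 and 2.63 CPM with dFz7-21 at 24 h, at 27.9, 27.2, 31.0 and 19.7 CPM with Fz7-21S, and at 23.6, 31.0, 32.1 and 28.6 CPM with DMSO (replicates 1 to 4 in order). The dFz7-21 libraries lie far below both other groups, which overlap, and spread more than 3-fold among themselves (60.3% CV). The means were 2.37 ± 1.43 CPM with dFz7-21, 26.4 ± 4.81 CPM with Fz7-21S and 28.8 ± 3.79 CPM with DMSO (SD, n = 4 each), and the log2 fold change against DMSO was -3.62 ± 0.26 (SE; 95% interval -4.15 to -3.09; edgeR adjusted p = 1.64e-10). Left out in turn, the 8 libraries moved it between -4.05, without dFz7-21 24 h replicate 1, and -3.37, without replicate 3. Pcdh8 shares 436 exonic bases, 9.61% of its exons, with Gm9748, an lncRNA of the opposite strand, which did not exceed 0.142 CPM in any library.

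Ptpro was at 4.39, 1.92, 2.67 and 4.39 CPM with dFz7-21 at 24 h, at 17.3, 14.7, 16.1 and 17.6 CPM with Fz7-21S, and at 15.1, 17.4, 19.4 and 14.7 CPM with DMSO. The highest dFz7-21 libraries, replicates 1 and 4, lie far below the lowest of the other groups, at 14.7 CPM. The means were 3.34 ± 1.25 CPM with dFz7-21, 16.4 ± 1.33 CPM with Fz7-21S and 16.7 ± 2.18 CPM with DMSO (SD, n = 4 each), a log2 fold change against DMSO of -2.32 ± 0.19 (SE; interval -2.71 to -1.94; edgeR adjusted p = 8.68e-10).

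Rgcc, inside the cell, was at 13.5, 7.62, 8.18 and 10.3 CPM with dFz7-21 at 24 h, at 30.9, 33.4, 37.8 and 47.4 CPM with Fz7-21S, and at 29.7, 33.8, 34.5 and 26.8 CPM with DMSO. The highest dFz7-21 library, replicate 1, stayed below the lowest DMSO library, replicate 4. The log2 fold change against DMSO was -1.66 ± 0.17 (SE; interval -2.01 to -1.31; edgeR adjusted p = 4.88e-08), from means of 9.90 ± 2.66 CPM with dFz7-21 and 31.2 ± 3.60 CPM with DMSO (SD, n = 4 each).

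Scn2b, the channel subunit, was at 5.25, 2.66, 3.40 and 4.67 CPM with dFz7-21 at 24 h, at 14.6, 16.4, 13.9 and 15.7 CPM with Fz7-21S, and at 12.4, 14.3, 16.1 and 17.4 CPM with DMSO. The mean was 3.99 ± 1.18 CPM with dFz7-21, against nearly equal means of 15.2 ± 1.13 CPM with Fz7-21S and 15.1 ± 2.18 CPM with DMSO (SD, n = 4 each), and the log2 fold change against DMSO was -1.92 ± 0.14 (SE; interval -2.22 to -1.62; edgeR adjusted p = 2.97e-10). Gm10684, an lncRNA annotated on the opposite strand across the gene, shares no exonic base with it and was also lower, at 24.2 ± 2.06 CPM with dFz7-21 against 50.9 ± 2.04 CPM with DMSO (SD, n = 4 each; log2 fold change -1.08 ± 0.07, edgeR adjusted p = 5.19e-11). Whether strand was used in counting is not given, so both values are uncertain where the 2 genes overlap, as they are for Pla2g5 and Pla2g2a.

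Pla2g5, the secreted enzyme, was at 13.4, 9.19, 9.27 and 10.3 CPM with dFz7-21 at 24 h, at 30.9, 30, 33.3 and 40.1 CPM with Fz7-21S, and at 27.8, 31.6, 36.5 and 28 CPM with DMSO. This was the smallest fall of the 5, with means of 10.5 ± 1.95 CPM with dFz7-21 and 31.0 ± 4.05 CPM with DMSO (SD, n = 4 each) and a log2 fold change of -1.56 ± 0.15 (SE; interval -1.87 to -1.26; edgeR adjusted p = 1.31e-08). Pla2g2a, another secreted phospholipase A2 gene, lies inside the span of Pla2g5 on the opposite strand with no shared exonic base. It fell too, to 7.20 ± 1.44 CPM with dFz7-21 against 16.6 ± 1.59 CPM with DMSO at 24 h (SD, n = 4 each; log2 fold change -1.21 ± 0.14, edgeR adjusted p = 1.92e-07).

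Within the dFz7-21 24 h group, replicate 1 was highest for Pcdh8, Rgcc, Scn2b and Pla2g5 and shared the highest rounded value of Ptpro with replicate 4, and replicate 2 was lowest for Ptpro, Rgcc, Scn2b and Pla2g5. The stem cell genes Lgr5, at 4.77, 2.0, 4.41 and 4.11 CPM, Ascl2, at 14.0, 6.71, 9.19 and 11.4 CPM, and Olfm4, at 87.2, 45.1, 63.1 and 76.3 CPM in replicates 1 to 4, were also highest in replicate 1 and lowest in replicate 2. Axin2 had the same ends, at 116 and 77.6 CPM. Sp5 was lowest in replicate 2 too, at 2.44 CPM, but highest in replicate 4, at 3.84 CPM. Summed over Lgr5, Ascl2, Smoc2, Olfm4, Axin2 and Sp5, the stem cell markers were at 250.3 to 372 CPM with dFz7-21 against 2055 to 2756 CPM with DMSO at 24 h, and at 1382 to 1587 CPM with dFz7-21 against 1958 to 2098 CPM with DMSO at 6 h. Their part in the fall of the 5 genes was not tested. Replicate 3, with its mesenchymal transcripts, stood at neither end except for Pcdh8. Without it and both DMSO 6 h libraries with such transcripts, the log2 fold changes at 24 h were -3.40 for Pcdh8, -2.23 for Ptpro, -1.58 for Rgcc, -1.85 for Scn2b and -1.50 for Pla2g5, all 5 still called.

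Against Fz7-21S at 24 h, which shares the dFz7-21 libraries with the comparison above, all 5 genes were called lower as well (17.2% of the genes tested were), again with no overlap (12.5% of the genes tested). The falls were 11.3-fold for Pcdh8 (log2 fold change -3.50 ± 0.26, edgeR adjusted p = 3.8e-10), 4.94-fold for Ptpro (-2.30 ± 0.19, 1.35e-09), 3.81-fold for Scn2b (-1.93 ± 0.14, 3.66e-10), 3.78-fold for Rgcc (-1.92 ± 0.17, 7.11e-09) and 3.20-fold for Pla2g5 (-1.68 ± 0.15, 6.05e-09).

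With Fz7-21S none of the 5 passed the test against DMSO at 24 h. By edgeR 0 of 5 were called, and 0 had an unadjusted p below 0.05, where edgeR called 0.259% of the genes tested. DESeq2 gave an adjusted p to Rgcc and Pla2g5, calling neither, and none to Pcdh8, Ptpro and Scn2b. All 5 pairs of groups overlapped. The intervals of the log2 fold change ran from -0.56 to 0.32 for Pcdh8 (-0.12, adjusted p = 0.748), from -0.37 to 0.32 for Ptpro (-0.02, 0.95), from -0.07 to 0.59 for Rgcc (0.26, 0.300), from -0.26 to 0.28 for Scn2b (0.01, 0.968) and from -0.17 to 0.40 for Pla2g5 (0.12, 0.616). For each gene the interval of dFz7-21 against DMSO lies wholly below that of Fz7-21S against DMSO.

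**Figure D2:**
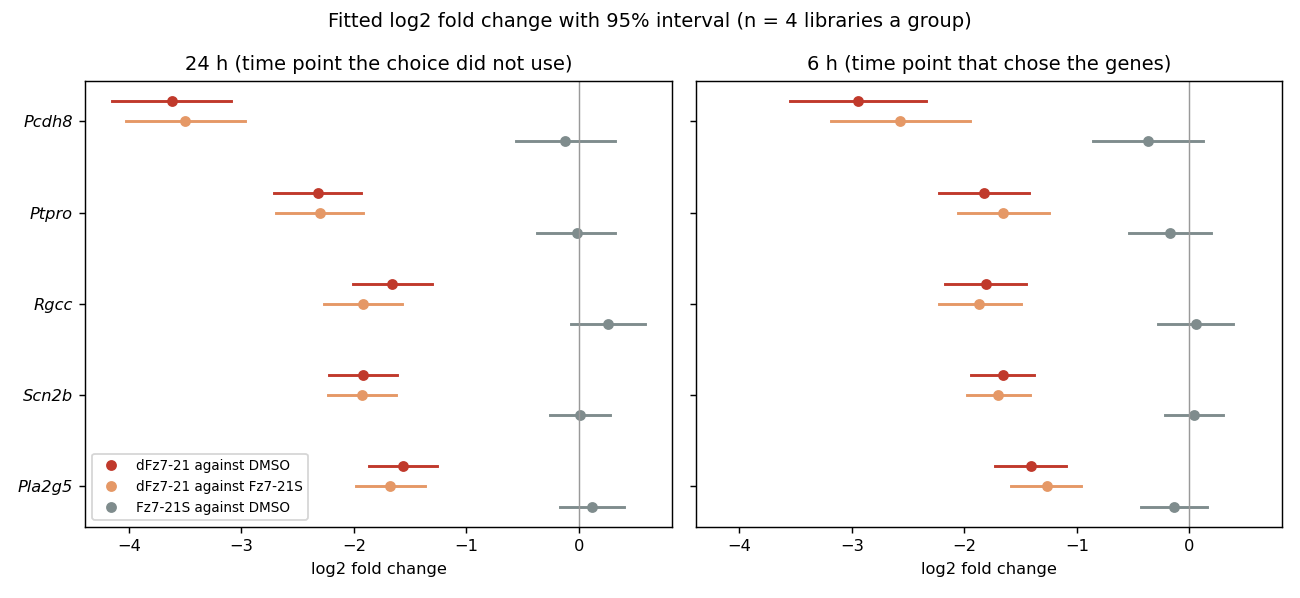
Fitted log2 fold change (points) with 95% interval (lines) of the 5 genes at 24 h (left) and 6 h (right), from 4 libraries a group. The left panel's title says that the choice did not use 24 h, but earlier results of these data were known at the choice. At 24 h both comparisons of dFz7-21 lie between -3.62 and -1.56 and that of Fz7-21S against DMSO lies between -0.12 and 0.26.

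At 6 h, the time point whose values chose the genes, the levels are given as a description without a test. Pcdh8 was at 0.930, 0.906, 0.997 and 0.715 CPM with dFz7-21, at 4.83, 4.84, 5.05 and 6.46 CPM with Fz7-21S and at 4.77, 8.50, 7.06 and 7.11 CPM with DMSO, 7.71-fold lower with dFz7-21 than with DMSO. The 4 dFz7-21 libraries are close together here, unlike at 24 h. Ptpro was at 1.94, 2.60, 1.99 and 2.37 CPM with dFz7-21, at 5.94, 8.07, 5.62 and 8.47 CPM with Fz7-21S and at 8.30, 7.29, 8.47 and 7.63 CPM with DMSO, 3.55-fold lower than with DMSO. Rgcc was at 5.26, 7.96, 4.24 and 6.66 CPM with dFz7-21, at 22.9, 20.2, 21.7 and 23.2 CPM with Fz7-21S and at 20.2, 18.7, 21.9 and 23.9 CPM with DMSO, a 3.51-fold fall. Fz7-21S and DMSO libraries overlap for all 3. Scn2b was at 6.27, 7.33, 6.05 and 7.23 CPM with dFz7-21, at 21.6, 23.9, 21.2 and 20.5 CPM with Fz7-21S and at 20, 20.4, 23.5 and 21.0 CPM with DMSO, 3.15-fold lower than with DMSO. Pla2g5 was at 4.93, 6.74, 5.94 and 9.34 CPM with dFz7-21, at 16.8, 17.7, 15.5 and 15.5 CPM with Fz7-21S and at 18.4, 15.5, 19.6 and 18.3 CPM with DMSO, 2.66-fold lower than with DMSO and 2.42-fold lower than with Fz7-21S. For all 5 genes the dFz7-21 libraries lie below every DMSO library of 6 h, as for 10.8% of the genes tested.

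Among all genes tested, 18 were both called and at least 2.5-fold lower at 6 h (0.117%). Just inside the threshold lie Pla2g5 at 2.66-fold and the semaphorin Sema4c at 2.54-fold, and just outside it Prelp at 2.48-fold and the receptor Tnfrsf19 at 2.46-fold. Of the 18, 10 had a mean log2 CPM of at least 2, namely the 5 genes and Lgr5, Slc14a1, Gm34567, Sp5 and Sema4c. These counts are a description, because the same 6 h values chose the 5 genes. All 10 were called lower against DMSO at 24 h by edgeR, as were 17.7% of the genes tested. The later fall is thus not particular to the 5 genes. Not all of the 18 stayed lower: below that mean, Obsl1 was called higher at 24 h (3.72). Slc5a4a, Gm36569 and BC035044 were not called, and Arhgap20, 4933406C10Rik, Fam184b and Rgma were called lower. With Fz7-21S, 8 of the 10 were higher at 24 h than at 6 h by 0.5 or more on the log2 scale. The share of all genes tested that did so was not counted. For scale, Gm10684, at 0.52, ranked 12240 from the lowest of the 15429 genes tested. Fitted log2 fold changes against DMSO at 24 h and 6 h stand side by side at -3.62 and -2.95 for Pcdh8, -2.32 and -1.83 for Ptpro, -1.66 and -1.81 for Rgcc, -1.92 and -1.66 for Scn2b and -1.56 and -1.41 for Pla2g5. No test was made of these differences between the times, because the 6 h values chose the genes. For comparison, those of Lgr5 were -4.67 and -2.05, so that its fall at 6 h was smaller than that of Pcdh8 and its fall at 24 h larger.

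The level of 4 of the 5 genes was also higher at the later time without dFz7-21, and that of Scn2b was lower. Whether the Fz7-21S libraries of 6 h entered the choice of the genes is not stated, so the p-values of this comparison may not be independent of it. In the Fz7-21S libraries Pcdh8 was 4.98-fold higher at 24 h than at 6 h. Its means were 26.4 ± 4.81 CPM at 24 h and 5.30 ± 0.786 CPM at 6 h (SD, n = 4 each). The log2 fold change was 2.32 ± 0.23 (edgeR adjusted p = 1.09e-08). Ptpro was 2.33-fold higher (1.22 ± 0.17, adjusted p = 1.94e-06), Pla2g5 2.05-fold (1.04 ± 0.14, 1.26e-06) and Rgcc 1.70-fold (0.76 ± 0.16, 2.75e-04), all 4 among the 31.0% of genes tested that were called higher. Scn2b fell 1.44-fold, to 15.2 ± 1.13 CPM at 24 h against 21.8 ± 1.47 CPM at 6 h (SD, n = 4 each; -0.52 ± 0.13, adjusted p = 0.00124), one of the 28.1% called lower. With Fz7-21S the libraries of 24 h and 6 h did not overlap for any of the 5, as for 25.5% (higher) and 24.3% (lower) of the genes tested. Gm10684, across Scn2b, moved the other way (0.52 ± 0.07, adjusted p = 1.12e-06), and Pla2g2a, inside Pla2g5, fell (-0.34, adjusted p = 0.0229) while Pla2g5 rose. The dFz7-21 and DMSO libraries gave the same directions as descriptions: on the log2 scale 1.39 with dFz7-21 and 2.07 with DMSO for Pcdh8, and in the same order 0.58 and 1.07 for Ptpro, 0.71 and 0.56 for Rgcc, -0.76 and -0.49 for Scn2b and 0.64 and 0.79 for Pla2g5. With dFz7-21 the libraries of 24 h and 6 h overlapped for Ptpro, Rgcc and Pla2g5, and with DMSO for none of the 5.

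Levels of different genes can be compared only per length, for which the authors' size-factor-adjusted RPKM were used. With dFz7-21 at 24 h the means were 10.2 ± 2.76 RPKM for Rgcc, 3.42 ± 0.641 for Pla2g5, 0.782 ± 0.232 for Scn2b, 0.596 ± 0.360 for Pcdh8 and 0.497 ± 0.186 RPKM for Ptpro (SD, n = 4 each), and the last 3 overlapped between libraries. With DMSO at 24 h, Rgcc was also the highest at 31.7 ± 3.59 RPKM, followed by Pla2g5 at 9.93 ± 1.29, Pcdh8 at 7.13 ± 0.929, Scn2b at 2.91 ± 0.425 and Ptpro at 2.45 ± 0.318 RPKM (SD, n = 4 each). Of neighbours in the order with DMSO, only Scn2b and Ptpro overlapped. Pcdh8 thus stood apart above Scn2b with DMSO, and among the lowest 3 with dFz7-21.

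The profiles of the 5 genes over the 6 groups were alike to different degrees. As a measure, the root mean square difference between centred group means of log2 CPM was 0.20 between Rgcc and Pla2g5, 0.25 between Ptpro and Rgcc and 0.28 between Ptpro and Pla2g5. Pcdh8 and Scn2b were the most unlike pair at 1.40. All 5 share the fall with dFz7-21 by choice, and these values describe likeness only.

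The 3 genes most like each were chosen by this measure over the 6 groups, among the tested genes that have a symbol and with the 5 themselves left out, and are described without a test. Outside the 5, nearest to Pcdh8 were Sfrp5, a secreted Frizzled-related protein (0.67), Prelp (0.69) and Gm34567 (0.70), whereas the 3 so chosen for each of the other 4 genes lay between 0.19 and 0.36. Prelp averaged 5.99 ± 1.56 CPM with dFz7-21, 26.2 ± 4.12 CPM with Fz7-21S and 30.1 ± 2.70 CPM with DMSO at 24 h (SD, n = 4 each). At 6 h it averaged 2.07 ± 0.571 CPM with dFz7-21, 4.72 ± 0.764 CPM with Fz7-21S and 5.13 ± 0.565 CPM with DMSO (SD, n = 4 each). Outside the 5, nearest to Ptpro were Gm34567 (0.27), the angiopoietin Angpt2 (0.29) and Pik3ap1, an adaptor of phosphoinositide 3-kinase (0.30). Angpt2 averaged 3.12 ± 0.541 CPM with dFz7-21 against 19.8 ± 3.39 CPM with DMSO at 24 h (SD, n = 4 each).

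Outside the 5, Rgcc and Pla2g5 had the same nearest 3 genes: Sema4c at 0.26 and 0.20, Rims4 at 0.34 and 0.20, and Rgmb at 0.36 and 0.19. Rgmb, a co-receptor for bone morphogenetic proteins, averaged 63.7 ± 9.07 CPM with dFz7-21 against 218 ± 12.2 CPM with DMSO at 24 h (SD, n = 4 each), and Rims4 did not exceed 2.49 CPM in any library. Nearest to Scn2b, again outside the 5, were Rgma, a relative of Rgmb (0.23), and the Wnt targets Sp5 (0.27) and Ascl2 (0.28). Sp5 averaged 2.91 ± 0.638 CPM with dFz7-21 against 14.7 ± 3.44 CPM with DMSO at 24 h, and 4.57 ± 0.641 CPM with dFz7-21 against 12.7 ± 0.747 CPM with DMSO at 6 h (SD, n = 4 each). With group medians in place of means, 12 of the 15 places held the same gene.

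**Figure D3:**
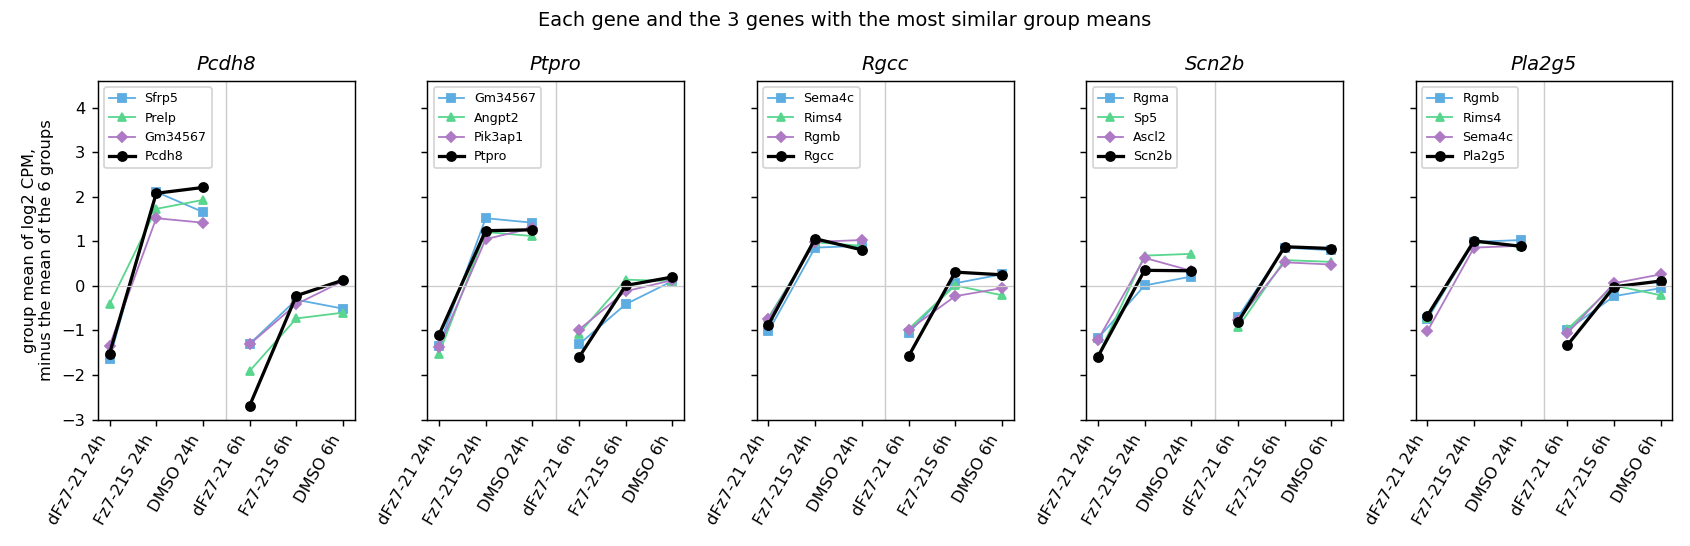
Group means of log2 CPM, each minus the mean of the gene's 6 groups, for each of the 5 genes (black) and the 3 genes outside the 5 nearest to it (coloured), with 24 h left and 6 h right of the grey line. Points are means of 4 libraries. Without dFz7-21, Scn2b and Rgma are lower at 24 h than at 6 h and Sp5 and Ascl2 are near level, while the other 4 genes and their neighbours are higher at 24 h.

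Other genes of the families to which the 5 belong moved in both directions. Over 7 lists, which hold the 5 genes themselves, 58 genes were tested at 24 h against DMSO. Of these, 17 were called lower, the 5 genes chosen for their fall among them, 12 higher and 29 neither. Among all genes tested 17.7% were called lower and 18.2% higher, and the median log2 fold change was -0.01. Without the 3 libraries with mesenchymal transcripts 18 of the list genes were lower and 9 higher. Among protocadherins 4 of 12 were tested, and the other 3 besides Pcdh8 gave 0 calls by edgeR, 0 at an unadjusted p below 0.05 and 0 by DESeq2. Of 8 tested cadherins 0 fell and 5 rose (0 lower at an unadjusted p below 0.05 and by DESeq2, median 0.56). The rises included Cdhr5 and Cdhr2, protocadherin-like proteins of the brush border (0.69 ± 0.06, edgeR adjusted p = 7.06e-09, and 0.43 ± 0.06, 3.31e-06), and Cdh17, the liver-intestine cadherin (0.40 ± 0.08, 3.19e-04). The rises of Cdh2 and Cdh3 rest on dFz7-21 24 h replicate 3, the library with 974 CPM of mesenchymal markers: without it and both such DMSO libraries Cdh2 was at -1.42 (adjusted p = 0.145) and Cdh3 was not testable.

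Receptor tyrosine phosphatases gave 5 lower and 3 higher of 17 tested against DMSO (median -0.14). Against Fz7-21S at 24 h only 3 were lower and 1 higher (median 0.06). Of the 5 lower against DMSO, Ptprn2 (-0.27) was no longer called without the 3 libraries with mesenchymal transcripts (-0.30, edgeR adjusted p = 0.0533). Beside Ptpro, Ptprs fell (-0.81 ± 0.15, edgeR adjusted p = 2.17e-04), at 31.7 ± 5.65 CPM with dFz7-21 against 55.6 ± 6.61 CPM with DMSO (SD, n = 4 each). Ptprh, a phosphatase of the same subtype as Ptpro, rose (0.83 ± 0.09, 8.14e-08), at 71.2 ± 6.11 CPM with dFz7-21 against 40.1 ± 3.56 CPM with DMSO (SD, n = 4 each). Of 11 Rgcc partners and mitotic kinases 4 fell and 0 rose against DMSO (median -0.12), with 0 higher at an unadjusted p below 0.05 and by DESeq2. Beside Rgcc, those lower were Wee1, the kinase that inhibits Cdk1 (-0.45 ± 0.06, edgeR adjusted p = 3.72e-06), Aurkb (-0.19 ± 0.04, 0.00153) and Plk1 (-0.16 ± 0.06, 0.0395). Plk1 was no longer called without the 3 libraries with mesenchymal transcripts (adjusted p = 0.0822). Against Fz7-21S at 24 h, Aurkb (-0.11, edgeR adjusted p = 0.0629) and Plk1 (-0.09, 0.272) were not called.

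Among the sodium channel subunits, Scn2b was the 1 called lower. Scnn1a, a subunit of the epithelial sodium channel, rose (0.38 ± 0.10, edgeR adjusted p = 0.00390). Scn3a, a pore-forming subunit of a voltage-gated sodium channel, was at 0.41 and was not called (adjusted p = 0.352). Against Fz7-21S at 24 h, Scn3a was called higher (0.98, edgeR adjusted p = 0.0293). Secreted phospholipases A2 and their receptor gave 5 lower and 2 higher of 9 tested (median -0.53), among them Pla2g5 and Pla2g2a as given above and Pla2g12b, which rose (0.89 ± 0.11, 4.44e-07) to 59.4 ± 2.27 CPM with dFz7-21, against 32.1 ± 1.85 CPM with DMSO. Pla2g2d, one of the 5 lower (-1.97), averaged 0.0688 ± 0.0797 CPM with dFz7-21 against 0.285 ± 0.144 CPM with DMSO (SD, n = 4 each) and was no longer called without the 3 libraries with mesenchymal transcripts (-1.53, edgeR adjusted p = 0.128). Of 5 tested cytosolic and other phospholipases A2, Pla2g4a, which releases arachidonic acid inside the cell, was the 1 called: it fell to 13 ± 4.98 CPM with dFz7-21, against 52.2 ± 6.42 CPM with DMSO (SD, n = 4 each; -2.0 ± 0.16, 1.1e-09).

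**Figure D4:**
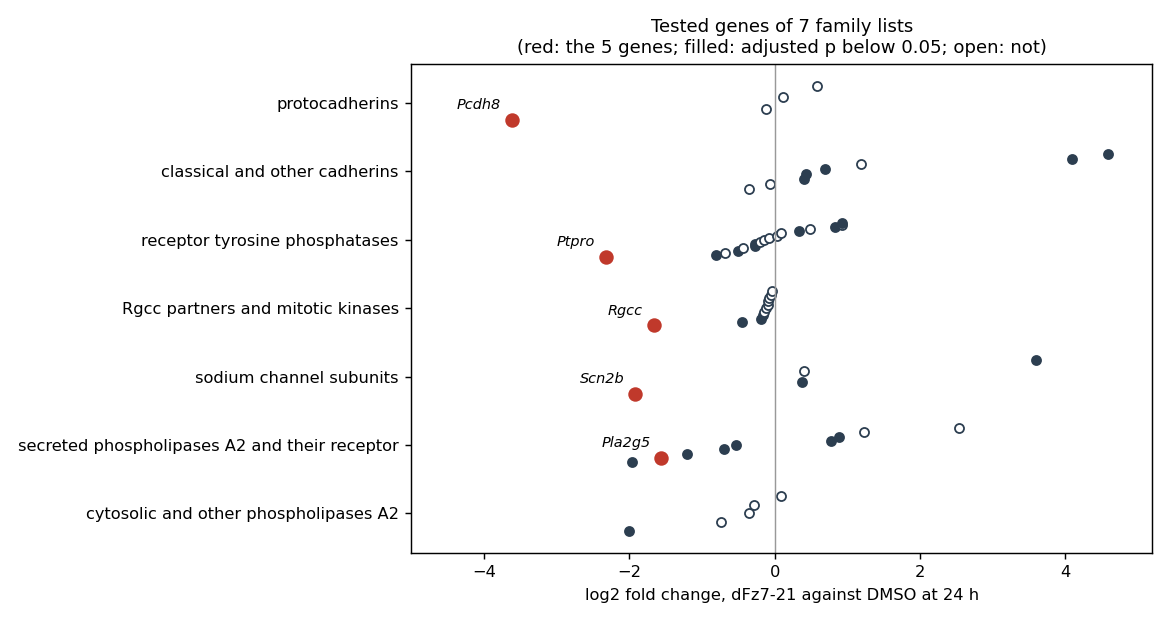
Log2 fold change of dFz7-21 against DMSO at 24 h for the 58 tested genes of 7 family lists, 1 point a gene, spread vertically within a list for legibility. The 5 genes are red, filled points have an adjusted p below 0.05, and Pcdh8 at -3.62 is the lowest of all 58.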

How the data were processed

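The authors deposited 1 file per library with, per the file headers, the count of reads aligning uniquely to each gene model and an RPKM scaled with size factors. The submitters' processing notes name GSNAP and GRCm38. Whether strand was counted is not given in the sources used here. Keeping unique alignments only can cost near-identical genes their reads. No other gene ID repeated the counts of the 5 genes.

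From the deposited counts, genes passing edgeR's filterByExpr over the 6 groups were tested (15429 of 36528) with TMM factors and 1 quasi-likelihood fit over 24 libraries (edgeR 4.0.16, R 4.3.3), two-sided, with Benjamini-Hochberg adjustment over all genes tested and a threshold of 0.05. Levels are TMM-normalised CPM. The standard error is the log2 fold change divided by the root of its F statistic. The deposited RPKM served only to compare levels between genes. The procedure was tested on simulated data with the same spread for every gene and no library that stands apart, unlike these data. Group and replicate came from the sample titles. Every pair of replicates differed by more than counting error (chi-square over its degrees of freedom, 2.77 to 88.9). The pairs with Fz7-21S 24 h replicate 4 were at 69.6 to 88.9, and no other pair exceeded 16.8. Without that library the log2 fold change of Rgcc for Fz7-21S against DMSO at 24 h was 0.12, against 0.26 with it.

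The 5 genes, the lists, the comparators and the libraries left out were chosen with earlier results of these data known. Named genes were the 5, the 3 nearest each outside the 5, those beside the 2.5-fold threshold, up to 3 called per family list with the smallest p, and Lgr5, Ascl2, Axin2 and Sp5; Olfm4, Gm10684, Pla2g2a, Gm9748, Cdh2, Cdh3, Plk1, Scn3a, Ptprn2, Pla2g2d and the genes near Rgcc and Pcdh8 were added after their values were seen. The rest of the 18 genes both called and at least 2.5-fold lower at 6 h were also named after their values were seen. Gene positions are those of RefSeq (GRCm38.p6), which named 31049 of the IDs. Alternatives were RLE factors, no filter, DESeq2 1.42.0, a replicate block, only the 2 groups compared, libraries that stand apart left out, and each replicate left out. The result of 1 gene of the sodium channel list is not reported here.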

Additional observations from a re-analysis of the deposited data

Results flagged for a closer look

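Of 30 sets of 4 libraries (5 genes in 6 groups), 1 held a library far from the other 3 by Dixon's criterion for 4 samples (0.829): Pcdh8 with Fz7-21S at 6 h was at 6.46 CPM in replicate 4 and at 4.83, 4.84 and 5.05 CPM in replicates 1 to 3. Chance flags about 1 in 20 such sets. Without that library the log2 fold change of Pcdh8 between Fz7-21S at 24 h and at 6 h was 2.43, against 2.32 with it.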

How the results depend on the processing

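The 5 genes were called lower against DMSO and against Fz7-21S at 24 h, and 0 of 5 for Fz7-21S against DMSO, under every alternative run, though there DESeq2 gave an adjusted p to only Rgcc and Pla2g5. In comparisons given without a test, the shift of the log2 fold change was set against the SD between libraries within the 2 groups. It stayed below that SD for all 5 genes in every alternative. Over all comparisons of the 5 genes, the sign turned only for values near 0 of Fz7-21S against DMSO at 24 h and 6 h. Counts over all genes moved more. For dFz7-21 against Fz7-21S at 24 h, 1182 genes were lower and 1123 higher with only those libraries in the fit, against 2651 and 2551; leaving out 1 library gave 1877 to 2592 and 2486 to 3244. For Fz7-21S against DMSO at 24 h, 0 were lower by edgeR (1529 at an unadjusted p below 0.05) and 40 higher; DESeq2 gave 17 and 101, the replicate block 1 and 34, only those libraries 0 higher, and 1 library left out 0 to 510 and 22 to 880, both highest without Fz7-21S replicate 1. For dFz7-21 against DMSO at 6 h, 771 and 933 became 333 and 365 without the 3 libraries with mesenchymal transcripts, 1061 and 1175 without these and 2 more of 24 h (replicate 4 of Fz7-21S, replicate 2 of DMSO), 1799 and 1841 with only the 2 groups' libraries, and 566 to 739 and 606 to 897 with 1 left out, lowest without dFz7-21 6 h replicate 1. The cause was not tested. Family list genes called lower numbered 13 to 17 and higher 9 to 14 with 1 library left out. The replicate block left 5 of 5 genes lower against DMSO at 24 h, with 2753 genes lower and 2715 higher in all. Same-numbered libraries correlated at -0.52 to 0.32 over 60 pairs (median 0.01), and those of different numbers at -0.50 to 0.59 over 180 (median 0.00). Of the 24 libraries, 6 correlated best with their own number. No sign of pairing by number was seen, which does not exclude it. Depth limits Pcdh8 most, at 19 to 27 counts with dFz7-21 at 6 h.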

Other observations

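Rgcc and Pcdh8 lie 465 kb apart on chromosome 14, and the stem cell gene Olfm4 lies beyond Pcdh8, so that 734 kb from the start of Rgcc to the end of Olfm4 hold 3 of the genes that fell. The stretch was chosen after these positions were seen. At 24 h against DMSO, Olfm4 was at 67.9 ± 18.1 CPM with dFz7-21 against 1367 ± 227 CPM with DMSO (SD, n = 4 each; log2 fold change -4.33, edgeR adjusted p = 7.79e-16), but at 6 h it was at 1219 ± 91.8 CPM with dFz7-21 against 1502 ± 75.8 CPM with DMSO (-0.30), while Rgcc and Pcdh8 were already 3.51-fold and 7.71-fold lower. Of the other 8 tested genes of the stretch, 2 were called at 24 h, both with small falls: Naa16 (-0.23, adjusted p = 0.0240) and Kbtbd7 (-0.38, adjusted p = 0.0321). The transcription factor gene Elf1, between Rgcc and Pcdh8, was at 124 CPM with dFz7-21 against 122 CPM with DMSO (0.02, adjusted p = 0.853), and Wbp4 was at 53.5 CPM with dFz7-21 against 54.1 CPM with DMSO (-0.02, adjusted p = 0.886). The other 4 tested genes, Mtrf1, Kbtbd6, Sugt1 and Gm6999, did not pass either.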
